A study of Mus musculus with 4 samples.

Results

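The sequences described here are short RNA fragments that the deposited files annotate as 18S rRNA. A distinct sequence was a member when it was at least 18 nt long and every part of its annotation was 18S-rRNA. Of 1442059 distinct sequences of 18 nt or longer in the 4 libraries, 430951 were annotated and 18405 were members. The count of a sequence is the number of reads identical to it. Of the members, 3198 were found in all 4 libraries, 2661 in 3, 4127 in 2 and 8419 in 1, and the label did not differ between files for any of them (0 differences). Just below the length limit, the 17 nt 18S reads numbered 51154 in control replicate 1, 137529 in control replicate 2, 500 in Mdd replicate 1 and 693 in Mdd replicate 2. Just inside it, reads of 18 nt came to 43289, 118652, 97149 and 108148, with the libraries taken in that order.

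The study profiled small RNA in sperm of C57BL mice under repeated unpredictable stress. The 2 Mdd libraries came from mice given a varying stressor each day: a bare or tilted cage, wet bedding, noise, flashing light, tube restraint, isolation or a shifted light cycle. The 2 control libraries came from mice of the same strain left alone apart from feeding and cleaning, and the sources used here give no age. RNA of 18 to 40 nt was taken from TRIzol extracts of sperm, although the tissue labels read testis and testicular cells, and the material was not checked against marker genes here because the files hold only sequences of 15 to 45 nt. The labels do not tie a replicate to an animal, so a p-value here measures only the spread between libraries, which may be technical. In such bulk RNA, fewer cells of a type and less RNA per cell cannot be told apart.

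18S rRNA is the RNA of the small ribosomal subunit. It is cut, with 5.8S and 28S rRNA, from 1 long precursor transcribed in the nucleolus, and it carries the decoding centre of the ribosome. Mature mouse sperm translate little, and fragments of ribosomal RNA are a known component of their small RNA, next to fragments of transfer RNA.

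The members were placed on a reference copy of 18S rRNA. That copy was the transcript of Gm42418, a single-exon lincRNA gene of the GENCODE vM21 annotation, 1831 nt long, at chr17:39846958-39848788 on the plus strand of GRCm38. It overlaps the RefSeq pseudogene Rn18s-rs5, and it holds only the later part of 18S rRNA. Positions below are bases counted from 1 at the 5′ end of that transcript. Exact matches placed 10245 of the 18405 members, all in the sense direction and each at 1 position, out to base 1245. Of the rest, 5983 matched the genome by the authors' mark but lay outside the copy or differed from it, and 2177 did not match the genome by that mark. The ribosomal repeats of the genome are many and alike, so a position on chromosome 17 says where the sequence can be read, not which copy was transcribed.

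Members were grouped into 219 families. A family is every member that shares at least 15 bases in a row with the most read sequence not yet placed in a family, and families are numbered by summed reads over the 4 libraries. The sequences that carry most of the reads are given next, 5′ to 3′. Lower case is the fragment itself. The 6 capitals are not part of the fragment: they are the bases of the reference copy just after its 3′ end. These sequences are shown because they hold the most reads and because their 3′ ends recur.
family_1_21nt: ttggttttcggaactgaggccATGATT
family_1_29nt: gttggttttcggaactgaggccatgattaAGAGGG
family_1_24nt: ttttcggaactgaggccatgattaAGAGGG
family_1_25nt: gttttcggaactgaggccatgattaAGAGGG
family_6_20nt: cggaactgaggccatgattaAGAGGG
family_2_27nt: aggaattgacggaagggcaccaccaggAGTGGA
family_2_25nt: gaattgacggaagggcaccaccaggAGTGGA
family_2_23nt: attgacggaagggcaccaccaggAGTGGA
family_2_22nt: ttgacggaagggcaccaccaggAGTGGA
family_3_23nt: aaagctcgtagttggatcttgggAGCGGG
family_5_36nt: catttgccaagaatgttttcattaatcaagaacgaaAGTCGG

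Family 1 and family 6 come from neighbouring, overlapping stretches. The 21 nt sequence of family 1 lies at bases 294 to 314, or chr17:39847251-39847271. Its 29 nt sequence starts 1 base earlier, at 293, but runs on to base 321 (chr17:39847250-39847278), and the 24, 25 and 20 nt sequences also stop at 321. All 4 sequences of family 2 stop at base 624, and the longest of them lies at bases 598 to 624 (chr17:39847555-39847581). The family 3 sequence lies at bases 72 to 94 (chr17:39847029-39847051), and the family 5 sequence at bases 402 to 437 (chr17:39847359-39847394). Every one of the 10 fragments shown that stop at base 94, 321, 437 or 624 is followed in the reference by AG. The 21 nt fragment of family 1 is followed by AT.

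The leading members of the 3 families not placed on the copy are shown for comparison, with no bases after the end. Whether these families lie outside the copy or differ from it was not determined. Those of families 4 and 7 matched the genome by the authors' mark. That of family 8 did not, and neither did 404 of the 456 sequences of its family.
family_4_19nt: tcctttggtcgctcgctcc
family_7_24nt: tcgatggtagtcgccgtgcctacc
family_8_25nt: aggccctcggatcggccccgccggg

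The first question was how much of each library was 18S rRNA. Members held 456753 of 9706895 reads of 18 nt or longer in control replicate 1, 875210 of 16763277 in control replicate 2, 1064011 of 23748630 in Mdd replicate 1 and 3465034 of 23806805 in Mdd replicate 2. These are shares of 4.71%, 5.22%, 4.48% and 14.6%, and their 95% Wilson intervals span at most ± 0.0142 percentage points, which covers counting error only. Mdd replicate 2 stood apart from the other 3 libraries, while Mdd replicate 1 was the lowest of the 4. The group means were 4.96% ± 0.365 (SD, n = 2) in control and 9.52% ± 7.12 (SD, n = 2) in Mdd, a difference of 4.55 percentage points with a two-sided exact permutation p of 1. The smallest p that 2 against 2 allows is 0.333. Without Mdd replicate 2 the difference was -0.48 percentage points.

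Among placed fragments, the excess in Mdd replicate 2 lay in those with 1 kind of 3′ end. Fragments placed on the copy and followed there by AG made up 1.64% of reads in control replicate 1, 1.52% in control replicate 2, 1.39% in Mdd replicate 1 and 12.04% in Mdd replicate 2. All other 18S fragments together made up 3.07%, 3.70% and 3.09% in the same 3 libraries and 2.51% in Mdd replicate 2, which was then the lowest of the 4. They include the fragments not placed on the copy, whose following bases were not looked up. For these the Mdd minus control difference was -0.58 percentage points (exact permutation p = 0.667, n = 2 against 2). The AG pattern was chosen after its values were seen. As a share of 18S reads, fragments ending before AG were 34.9%, 29.1%, 30.9% and 82.7%.

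**Figure D1:**
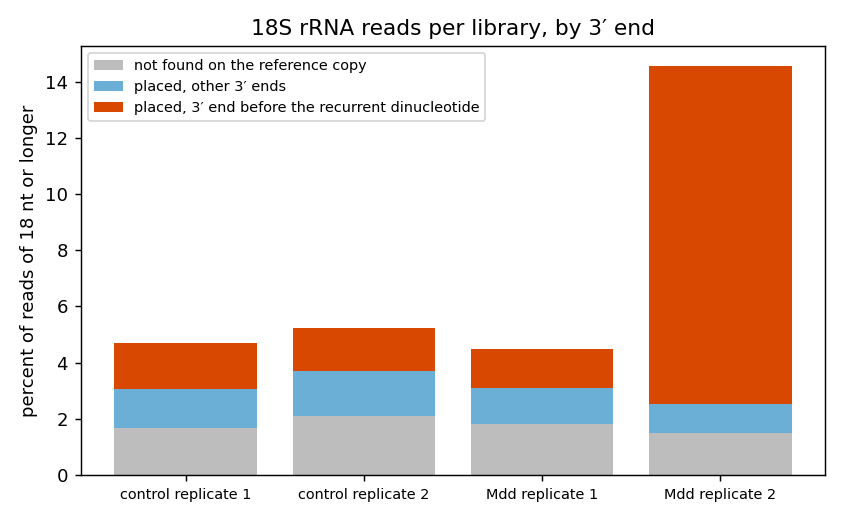
Percent of reads of 18 nt or longer that were 18S rRNA in each library (bars from 0), split into fragments not found on the reference copy (grey), placed fragments with other 3′ ends (blue) and placed fragments whose 3′ end is directly followed by the dinucleotide AG in the reference (orange). The orange segment is between 1.39% and 1.64% in 3 libraries and 12.04% in Mdd replicate 2, and the other segments together are between 2.51% and 3.70%.

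The 3′ ends of the placed fragments fell on few positions. Base 624 held 5.92%, 11.4% and 5.04% of placed 18S reads in control replicates 1 and 2 and Mdd replicate 1, against 42.4% in Mdd replicate 2. Base 321 held 25.8%, 20.9%, 28.5% and 26.0% in the order control 1, control 2, Mdd 1, Mdd 2. Base 94 held 12.5%, 7.20%, 11.5% and 14.8% in that order. At base 624 Mdd replicate 2 was far above the rest, while at base 321 its share lay inside the range of the others. The share at base 437 was 4.65%, 3.99%, 2.16% and 4.85%. Base 314, where the 21 nt fragment ends, went the other way: 11.5%, 11.3% and 11.4% in the first 3 libraries and 1.28% in Mdd replicate 2. The 4 ends at bases 94, 321, 437 and 624 together held 48.8%, 43.5%, 47.1% and 88.0% of placed reads.

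**Figure D2:**
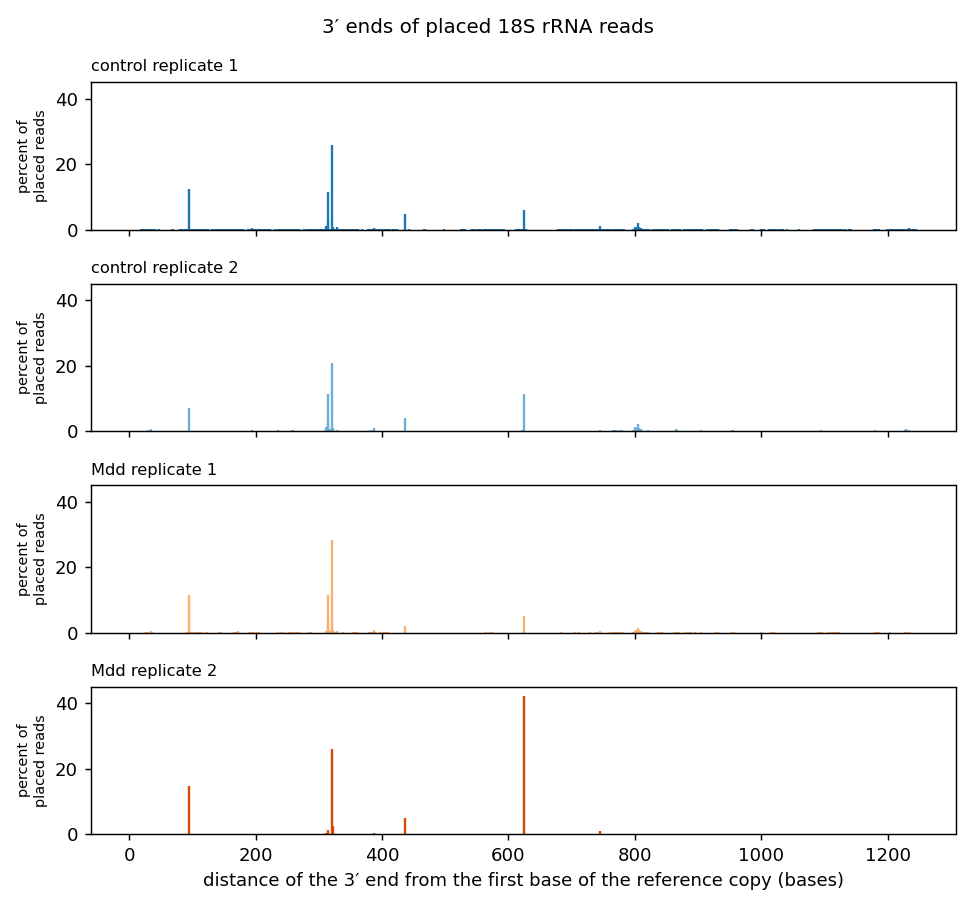
Percent of placed 18S rRNA reads whose 3′ end lies at each base of the reference copy, 1 panel per library, with the distance from the first base of the copy on the horizontal axis. The peaks stand at the same bases in all panels, and the peak at base 624 holds between 5.04% and 11.4% of reads in 3 libraries and 42.4% in Mdd replicate 2.

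Set against all reads of 18 nt or longer, each of the 4 AG ends was higher in Mdd replicate 2 than in any other library. Reads ending at base 624 were 1803, 3582 and 1341 CPM (reads per 1000000 reads of 18 nt or longer) in control replicates 1 and 2 and Mdd replicate 1, and 55403 CPM in Mdd replicate 2. Reads ending at base 321 came to 7846, 6552, 7576 and 33956 CPM. Those ending at base 94 came to 3796, 2262, 3051 and 19302 CPM, and those at base 437 to 1417, 1252, 575 and 6333 CPM. Reads ending at base 314, which is not followed by AG, came to 3509, 3536, 3046 and 1670 CPM and were lowest in Mdd replicate 2. The ratio of reads ending at 321 to reads ending 7 bases earlier at 314 was 2.24, 1.85, 2.49 and 20.3.

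AG follows few of the positions at which a fragment could end. It follows 81 of the 1228 positions of the covered stretch, or 6.60%, and 829 members ended there. Those members held 53.8%, 48.3%, 52.1% and 92.1% of placed reads in the order control 1, control 2, Mdd 1, Mdd 2. With each sequence counted once the shares were 9.85%, 8.71%, 10.1% and 11.1%, so the pattern lay in how often a few sequences were read rather than in how many sequences there were. The 5-base pattern AGNGG, like AG, was chosen after the ends were seen, so its share is a description and not a test. It follows 8 positions, or 0.651%, and 44.3%, 39.6%, 45.1% and 83.1% of placed reads ended there. Of those 8, bases 94, 321 and 624 held nearly all the reads. AGT follows 21 positions, or 1.71%, and 12.7%, 16.9%, 8.93% and 48.5% of placed reads ended before it. For comparison, TGG follows 25 positions, or 2.04%, and 0.559%, 0.960%, 0.683% and 0.197% of placed reads ended before it. Only the sense strand, 3′ of the fragment end, was searched. Neither the 3′ adapter nor its trimming is given in the sources used here, and their part in these ends was not tested.

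At bases 94, 321, 437 and 624 most reads that reached the end stopped there, which was not the rule for AG. Of the 79 AG positions reached by 18S reads in all 4 libraries, 5 stopped more than 50% of them in every library (those 4 and base 35) and 67 did so in none. Such stops were not limited to AG: of the 1104 other positions reached in all 4 libraries, 7 did so in every library and 1075 in none. The median stop share at AG positions was 1.57%, 1.25%, 0.799% and 0.901%, against 0.997%, 1.09%, 0.517% and 0.475% at all other positions. Base 323, also before AG, stopped 28.4%, 46.9%, 38.1% and 81.4%, and base 356, before AGNGG, 17.1%, 12.7%, 17.9% and 5.29%. Of the placed 18S reads that reached base 624, between 98.4% and 99.9% ended at it in each library, and no member (0) ran 5 or more bases past it. The annotation shaped that figure: 149 sequences with 3993 reads that match the copy and pass base 624 by at least 5 bases carry another label or none, and 137 of them are labelled lincRNA. With every sequence that matches the copy counted, 95.5%, 97.9%, 94.8% and 99.8% of reads ended at base 624 in the order control 1, control 2, Mdd 1, Mdd 2. At base 321 the shares were 92.7%, 91.7%, 93.8% and 89.3%, and at base 94 they were 88.4%, 82.5%, 85.6% and 97.6%; no sequence outside the 18S label crossed either (0). At base 314 the shares were 27.6%, 29.8%, 25.0% and 4.14%. Over the whole copy, 535 matching sequences were not labelled 18S, and they held 1593, 2927, 3031 and 3563 reads.

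The 5′ ends behind an AG end were spread out. Bases 94, 321, 437 and 624 each carried all 28 lengths from 18 to 45 nt in all 4 libraries, so each forms a ladder of fragments with a common 3′ end. At base 624 the most frequent length was 27 nt in control replicate 1 (26.7% of reads with that end), 20 nt in control replicate 2 (21.0%), and 27 nt in Mdd replicates 1 and 2 (19.4% and 9.15%). At base 94 it was 23 nt in all 4 libraries, with 17.3%, 16.4%, 17.4% and 8.24% of the reads. The ladders at bases 94 and 624 were flatter in Mdd replicate 2 than in the other libraries. Base 314 was different: a single length of 21 nt held 74.4%, 72.1%, 73.7% and 72.8% of the reads ending there.

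**Figure D3:**
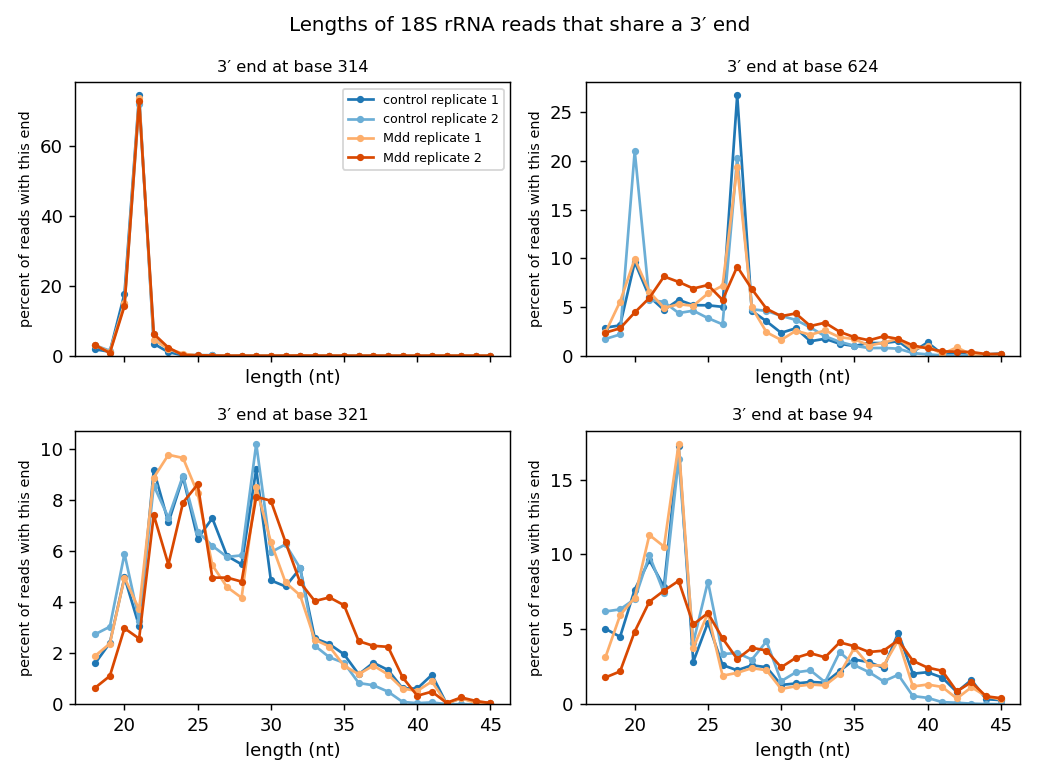
Length in nt (horizontal) against the percent of 18S rRNA reads that share the 3′ end at base 314, 624, 321 or 94, with 1 line per library. At base 314 all lines peak at 21 nt, between 72.1% and 74.4%, whereas the other ends spread over lengths from 18 to 45 nt and the line of Mdd replicate 2 has the lowest peak at bases 624 and 94.

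The leading 5′ start shows both kinds of end side by side. Reads starting at base 294 made up 12.7%, 12.3%, 12.7% and 2.91% of placed reads. In control replicates 1 and 2 and Mdd replicate 1, 67.5%, 65.8% and 66.2% of them stopped at base 314 and 11.1%, 9.84% and 9.31% ran on to base 321. In Mdd replicate 2, 32.0% stopped at 314 and 42.9% ran on to 321. From the same start, the longer fragment that ends before AG was the larger share in that library alone.

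The read-weighted mean length of the 18S fragments was 24.9 nt in control replicate 1, 23.6 nt in control replicate 2, 24.4 nt in Mdd replicate 1 and 27.5 nt in Mdd replicate 2. The difference between the groups, 1.67 nt, had an exact permutation p of 0.667 (n = 2 against 2), and without Mdd replicate 2 it was 0.112 nt. Without Mdd replicate 1 it was 3.24 nt. With the 15 to 17 nt reads included, of which the Mdd libraries hold few, the means were 22.02 and 20.6 nt in control and 24.4 and 27.5 nt in Mdd, a difference of 4.64 nt with no overlap (exact permutation p = 0.333, the smallest that n = 2 against 2 allows). Fragments ending before AG had means of 27.2, 25.9, 26.4 and 28.1 nt, and the other 18S fragments 23.7, 22.7, 23.5 and 24.8 nt. With each sequence counted once, the means were 28.8, 27.0, 27.4 and 28.7 nt. Length peaked at 21 nt in control replicate 1 (12.3% of 18S reads) and Mdd replicate 1 (12.3%), at 18 nt in control replicate 2 (13.6%, with 11.4% at 21 nt), and at 22 nt in Mdd replicate 2 (7.56%). Fragments of 30 nt or longer were 21.1%, 14.9%, 17.8% and 34.4% of 18S reads, again highest in Mdd replicate 2.

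**Figure D4:**
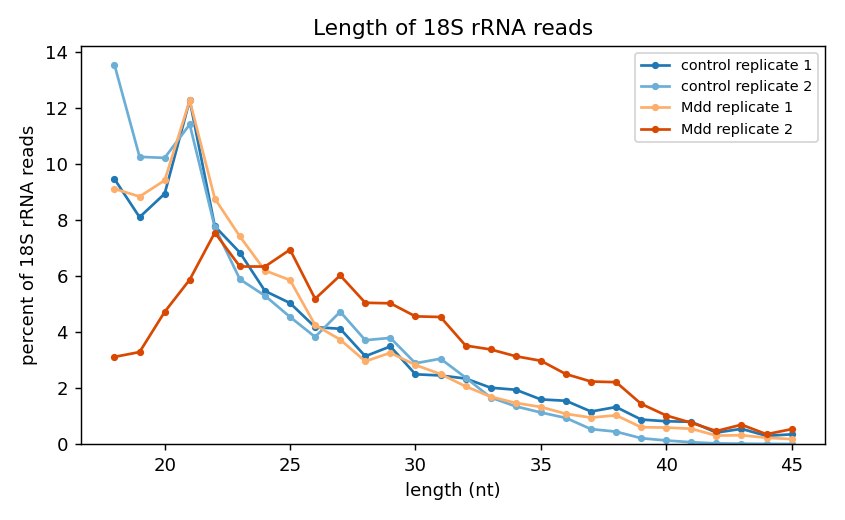
Percent of 18S rRNA reads at each length from 18 to 45 nt, 1 line per library. Both control libraries and Mdd replicate 1 show a peak at 21 nt between 11.4% and 12.3%. Mdd replicate 2 has its highest value, 7.56%, at 22 nt and lies above the others from 24 to 40 nt.

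The last base also set Mdd replicate 2 apart. G was the last base of 26.5%, 28.3%, 24.7% and 59.9% of 18S reads, and C of 31.6%, 33.1%, 33.3% and 6.39%. Counted once per sequence, G ended 28.5%, 28.1%, 29.2% and 27.5%, with no library apart. Among 18S reads other than those placed before AG, G was last in 21.3%, 23.0%, 20.7% and 36.1%, again highest in Mdd replicate 2. These include the reads not placed on the copy, whose following bases were not looked up. Reads of 18 nt or longer that were not 18S ended in G in 27.9%, 31.0%, 26.3% and 47.7%, so a high share of final G was also measured outside 18S rRNA in Mdd replicate 2. The first base varied less: T opened 40.8%, 40.9%, 42.0% and 36.8% of 18S reads, and A opened 23.5%, 23.0%, 23.3% and 31.3%.

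Few families carried the 18S reads. The 8 leading families held 56.3%, 50.4% and 56.2% of them in control replicates 1 and 2 and Mdd replicate 1, and 87.9% in Mdd replicate 2. Family 1, with 408 sequences between bases 270 and 344, held 25.7%, 21.8%, 25.3% and 26.1%. Its difference between groups was 1.995 percentage points (exact permutation p = 0.667, n = 2 against 2) and -1.05 once ends before AG were left out. Leaving out control replicate 2 gave 0.041 and leaving out control replicate 1 gave 3.95. With families built on 18 shared bases, the most read family was a different one, with shares close to those of family 2 below. It held 4.10%, 7.16%, 3.17% and 38.2%, a difference of 15.1 percentage points. Family 2, with 255 sequences between bases 572 and 628, held 4.12%, 7.18%, 3.18% and 38.2%. It was the family most read in Mdd replicate 2, whereas family 1 led in the other 3 libraries.

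Levels of the families are given on the same scale, as CPM of all reads of 18 nt or longer. Family 1 had 12076, 11359, 11335 and 38004 CPM, libraries in the order control 1, control 2, Mdd 1, Mdd 2, and family 2 had 1940, 3746, 1425 and 55622 CPM. Family 3, with 482 sequences between bases 45 and 121, had 4096, 2626, 3325 and 19764 CPM. In these 3 families Mdd replicate 2 was the highest library and Mdd replicate 1 lay below at least 1 control library, so the groups overlapped. Family 5, at bases 373 to 445, had 1520, 1331, 620 and 6434 CPM. Family 6, at bases 301 to 345, had 1082, 1122, 1063 and 2926 CPM. In both, Mdd replicate 1 was below both control libraries and Mdd replicate 2 above them.

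Of the 3 leading families not placed on the copy, 2 went the other way in CPM. Family 4 had 3375, 2725, 3912 and 1967 CPM and family 7 had 1236, 2500, 1717 and 1122 CPM. In both, Mdd replicate 2 was the lowest library on this scale. The TMM scaling factors of the family fit were 1.11, 1.16, 1.03 and 0.758 in the same library order. The order of the libraries can therefore differ on the scale of that fit. Family 8, most of whose sequences did not match the genome by the authors' mark, had 1183 and 926 CPM in control and 1789 and 2092 CPM in Mdd. It was the 1 family of the 8 whose groups did not overlap. Of all annotation names and 18S families tested, 8.46% had no overlap with Mdd higher and 30.7% with Mdd lower. Families 14 and 18, smaller and not placed on the copy, were chosen after their values were seen. Family 14 had 509, 633, 278 and 1109 CPM and family 18 had 189, 102, 101 and 1155 CPM. In both, Mdd replicate 1 was lowest and Mdd replicate 2 highest. A higher level in Mdd replicate 2 was thus measured in these smaller families, but not in unplaced fragments as a whole. All 18S fragments not placed on the copy made up 1.66%, 2.08%, 1.82% and 1.48% of reads, lowest in Mdd replicate 2.

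**Figure D5:**
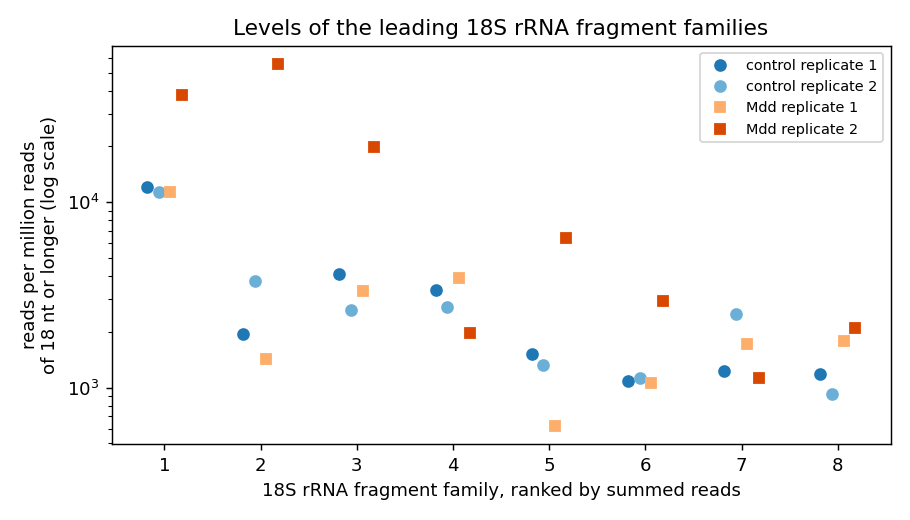
Reads per 1000000 reads of 18 nt or longer (CPM, log axis) of the 8 leading 18S rRNA fragment families, with 1 point per library (circles for control, squares for Mdd). Mdd replicate 2 is the highest point in families 1, 2, 3, 5, 6 and 8 and the lowest in families 4 and 7.

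The count test compared Mdd with control for every annotation name and every 18S family (edgeR quasi-likelihood, Benjamini-Hochberg adjustment over 1040 features). Of the 219 families, 196 passed the filter on low counts, and 0 passed an adjusted p of 0.05 in either direction, as did 0% of all features. At an unadjusted p under 0.05 there were 7 families, or 3.57%, against 8.75% of all features: 2 higher in Mdd (1.02%, against 1.73%) and 5 lower (2.55%, against 7.02%). DESeq2 called 1 (0.51%, against 1.44% of all features), family 2, at an adjusted p of 0.0132. The fitted log2 fold change was positive in 87 of the 196 families (44.4%, against 46.9% of all features), with a median of -0.18 over the families and -0.11 over all features. Groups did not overlap, with Mdd higher, in 8 families (4.08%, against 8.46% of all features), and with Mdd lower in 64 (32.7%, against 30.7%).

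The fitted log2 fold change of family 2 was 3.97 (SE 1.63, edgeR adjusted p = 0.558), and those of families 3 and 1 were 2.34 (SE 1.02, edgeR adjusted p = 0.585) and 1.61 (SE 0.83, edgeR adjusted p = 0.671). All rested on Mdd replicate 2. Without that library they were -0.80, 0.14 and 0.12, and with it but without ends before AG they were 0.38, 0.64 and 0.05. Those ends held 94.95% to 99.8% of family 2 reads in each library, 86.1% to 97.7% of family 3 and 51.3% to 90.4% of family 1. Leaving them out therefore removes most reads of these families. The AG pattern was also chosen after its values were seen, so the lower values are a description and not a test. Families 5 and 6 had fitted values of 1.90 and 1.38, and without Mdd replicate 2 they had -1.04 and 0.12. Family 8 had 1.31 (SE 0.55, edgeR adjusted p = 0.573) and 0.92 without Mdd replicate 2. None of its sequences is placed (0), so leaving out ends before AG removes none of them. It was higher in 2 of 2 Mdd libraries. For families 4 and 7 the fitted values were 0.28 and -0.00, and both changed sign with the scaling of the libraries. Without Mdd replicate 1, whose loss leaves that group a single library assumed to vary like the control libraries, 5 of 206 families were called (2.43%, against 2.41% of all features in that fit). Families 2, 3, 5 and 1 were among them (edgeR adjusted p = 1.03e-11, 0.000224, 0.00579 and 0.00684), and the fifth was family 18, outside the named families and chosen after its values were seen.

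Single sequences gave the same division. The 21 nt sequence of family 1, the most read member, had 2612 and 2549 CPM in control and 2246 and 1216 CPM in Mdd. Both Mdd libraries were lower, and the fitted log2 fold change was -0.31 (SE 1.08, edgeR adjusted p = 1). The 27 nt sequence of family 2 had 482, 729, 260 and 5071 CPM in the order control 1, control 2, Mdd 1, Mdd 2. Its 22 nt sequence, which starts 5 bases later, had 84.9, 198, 65.9 and 4511 CPM. The 23 nt sequence had 103, 157, 70.9 and 4201 CPM, and the 25 nt sequence 93.4, 138, 85.8 and 4025 CPM. For all 4 the Mdd libraries lay on either side of the controls, with fitted values between 2.79 and 4.82 and edgeR adjusted p-values between 0.474 and 0.876. Without Mdd replicate 2 those values lay between -1.27 and -0.48.

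The family 1 sequences that end before AG differed less between the libraries. The 29 nt sequence had 722, 667, 643 and 2756 CPM, with Mdd replicate 1 just below both controls. The 24 nt sequence had 697, 586, 730 and 2679 CPM and the 25 nt sequence 509, 443, 625 and 2922 CPM. In these 2 sequences both Mdd libraries exceeded both control libraries, with log2 fold changes of 1.97 (SE 1.31, edgeR adjusted p = 0.868) and 2.48 (SE 1.39, edgeR adjusted p = 0.686). The 20 nt sequence of family 6 had 390, 386, 375 and 1010 CPM, and the 23 nt sequence of family 3 had 656, 371, 531 and 1590 CPM. The 36 nt sequence of family 5 had 189, 154, 70.7 and 737 CPM. Among those not placed on the copy, the 19 nt sequence of family 4 had 144, 123, 277 and 71.5 CPM. The 24 nt sequence of family 7 had 165, 194, 212 and 72.8 CPM. In both, the 2 Mdd libraries were the extremes. The 25 nt sequence of family 8 had 156 and 69.0 CPM in control and 256 and 165 CPM in Mdd, a log2 fold change of 1.20 (SE 0.78, edgeR adjusted p = 0.842) with no overlap between the groups.

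In the fit over 79093 annotated sequences, 6382 of the 18405 members passed the filter and 0 passed an edgeR adjusted p of 0.05, as did 0% of all sequences. The lowest adjusted p was 0.194. At an unadjusted p under 0.05 there were 482 members, or 7.55%, against 13.3% of all sequences: 78 higher in Mdd (1.22%, against 1.25%) and 404 lower (6.33%, against 12%). Groups did not overlap, with Mdd higher, in 636 members (9.97%, against 8.13% of all sequences), and with Mdd lower in 1543 (24.2%, against 29.8%). The fitted log2 fold change was positive in 3420 members (53.6%, against 48.3%), and its median was 0.14, against -0.07 over all sequences. DESeq2 called 22 members (0.345%, against 0.25% of all sequences), of which 20 were higher in Mdd and 12 ended before AG. Of all 18405 members, tested or not, 829 ended before AG, a pattern chosen after its values were seen. Without Mdd replicate 1, edgeR called 195 of 9177 members (2.12%, against 1.47% of all sequences in that fit), of which 193 were higher and 89 ended before AG. Leaving out Mdd replicate 2 gave 7 calls (0.0855%, against 0.14%) and leaving out control replicate 1 gave 1 (0.0106%, against 0.00948%).

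The sequences of lowest p were all rare, and they are shown because they are present in 1 group only.
family_8_40nt: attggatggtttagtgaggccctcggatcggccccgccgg
family_19_44nt: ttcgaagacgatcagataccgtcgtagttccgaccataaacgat
family_25_36nt: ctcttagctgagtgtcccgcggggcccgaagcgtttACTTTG
family_38_29nt: gtcataagcttgcgttgattaagtccctg
The 40 nt sequence, a longer relative of the leading member of family 8, had 0 and 0 reads in control and 14 and 12 in Mdd. The 44 nt sequence had 0 and 0 reads in control and 15 and 12 in Mdd. The 36 nt sequence, at bases 168 to 203 (chr17:39847125-39847160), and the 29 nt sequence each had 5 and 10 reads in control and 0 and 0 in Mdd. All 4 had an edgeR adjusted p of 0.194, so none passed the threshold, and none ends before AG on the copy.

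Facts of the libraries bear on these values. The files held 12845403 to 24112532 reads, and the median member was read 10 and 13 times in control replicates 1 and 2 and 34 and 18 times in Mdd replicates 1 and 2. Members found in all 4 libraries held between 87.0% and 95.5% of 18S reads. Of the other nuclear rRNA classes, 28S was 16.4% of reads in Mdd replicate 2 and between 10.5% and 11.98% in the other libraries, while 5.8S was 1.53% there against 2.21% to 3.12% and 45S 2.33% against 2.72% to 4.95%. 5S was 0.874% there against 0.434% to 0.527%, 4.5S was 1.49% against 0.0783% to 0.123%, and mitochondrial rRNA was 3.92% against 4.71% to 9.63%. A higher share in Mdd replicate 2 was therefore not particular to 18S rRNA.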

How the data were processed

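Small RNA was sequenced from sperm of 2 control and 2 Mdd samples, with an MGIEasy kit per the labels' protocols. Each deposited file has 1 row per distinct sequence of 15 to 45 nt, which per the file headers carries the authors' raw read count, a length, a genome match mark and an annotation. These deposited counts entered every step unchanged. DESeq2 and the mm9 build are named in the submitters' processing notes, without versions. How reads were trimmed, aligned and annotated is not given in the sources used here. Coordinates come from an exact match to GRCm38 and were not converted from mm9.

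The 4 tables were merged on the sequence. A sequence was annotated from control replicate 1, else control replicate 2, else Mdd replicate 2, and last from Mdd replicate 1, whose file names fewer classes. Reads of 15 to 17 nt were left out because the Mdd files held few of them. Counts per sequence, and per annotation name with 18S rRNA split into families, were tested with edgeR 4.0.16 in R 4.3.3 (TMM scaling, filterByExpr, quasi-likelihood test, Benjamini-Hochberg over all features, threshold 0.05) on all 4 libraries with group as the only term. For shares and mean lengths an exact permutation test over the libraries (two-sided) was run in Python 3.11.15. The scripts were tested on simulated data.

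Named sequences were the 8 of highest summed reads, the leading sequence of each of the 8 most read families, and, since none passed the threshold, the 2 of lowest p in each direction. The members, families and lists were chosen with earlier results of these data known. Alternatives covered the scaling, DESeq2 1.42.0, the filter, the dispersion, the family rule with 12 or 18 shared bases, all lengths, the annotation as deposited, the replicate number as a block and leaving out each library. Leaving out fragments that end before AG was chosen after seeing the data. It removes placed fragments only, since the bases after the others were not looked up. Same-numbered samples did not deviate together (correlation 0.0111 over sequences and -0.0457 over families). Libraries held 9706895, 16763277, 23748630 and 23806805 reads of 18 nt or longer, and copies of a read are not independent molecules, so intervals cover counting error only.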

Additional observations from a re-analysis of the deposited data

How the results depend on the processing

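The direction of the 18S share rested on Mdd replicate 2: leaving out each library in turn gave differences from -0.48 to 9.59 percentage points, and leaving out ends before AG gave -0.58. For the share of family 1 among 18S reads, leaving out those ends gave -1.05. The number of sequences called, 0 with edgeR, was 22 with DESeq2, 21 with no filter and 0 to 195 without each library in turn. For families these counts were 1, 2 and 0 to 5. With the replicate block, which here rests on a shared number only, 1 sequence and 0 families were called. Members tested with no filter were 18405 sequences and 219 families, and with the block 6382 and 196. Among all features, no filter called 105 of 430951 sequences (0.0244%) and 17 of 1718 annotation names and families (0.99%). The block called 13 of 79093 sequences (0.0164%) and 7 of 1040 names and families (0.673%). DESeq2 called 0.25% of all sequences and 1.44% of names and families. Library size alone as scaling moved the median log2 fold change of all sequences from -0.07 to -0.37, and DESeq2's scaling method moved it to 0.05. Among named sequences and families, 328 values kept direction and side of the threshold under an alternative, 12 passed it and 21 changed sign. Family 4 had -0.015 with library size alone. Family 7 had 0.11 with the RLE scaling and with DESeq2, 0.013 with no filter and without ends before AG, 0.063 with the replicate block, 0.14 with 18 shared bases, 0.37 with all lengths, and -0.28 to 0.49 without each library. Without each library in turn, family 2 ranged from -0.80 to 4.96 and family 5 from -1.04 to 2.82. The sequences of family 2 ranged from -1.27 to 3.72 (27 nt), -1.15 to 5.64 (22 nt), -0.92 to 5.66 (23 nt) and -0.48 to 5.77 (25 nt). The other sequences that changed sign ranged from -0.16 to 2.64 (family 1, 29 nt), -0.24 to 1.01 (family 4, 19 nt), -1.32 to 2.76 (family 5, 36 nt), -0.091 to 2.04 (family 6, 20 nt) and -0.65 to 0.19 (family 7, 24 nt). The cause of these changes was not tested.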
